A study of Mus musculus with 5 samples.

Results

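The miR-29 family was followed through 3 entries, mmu-miR-29a-3p, mmu-miR-29b-3p and mmu-miR-29c-3p (written below without the species prefix), out of 1316 miRNA entries. The 3 were chosen by name, as miRNAs known to act on the enzymes that set new DNA methylation, and all 3 had reads in each of the 5 mouse libraries. Primordial germ cells came from male gonads of CD-1 fetuses 13.5 days after conception, by beads against CD15, and spermatogonia from CD-1 testes 8.5 days after birth, by differential adhesion. Spermatozoa came from the cauda epididymis and vas deferens of mature CD-1 males, by a Percoll gradient and hypo-osmotic shock. Metaphase II oocytes, 15210 in number, came from superovulated C57BL/6 females aged 4 to 5 weeks and were freed of cumulus cells with hyaluronidase and of the zona. The 15416 zygotes came from such females mated with DBA/6J males and were taken 15 to 18 hours after fertilization. Each library pooled many cells, and each cell type had 1 library, so the differences below have no replicate check and were not tested. Strain, sex and preparation cannot be told apart from cell type where CD-1 male libraries are set against oocyte or zygote. Among the CD-1 male libraries, age and preparation cannot be told apart from cell type either. Nor can the strain of the father where the zygote is set against the oocyte. Small RNAs of 18 to 32 nucleotides were sequenced, and the miRNA tables held from 1216358 reads in spermatozoa to 12004614 in primordial germ cells. Levels are given as RPM, reads per 1000000 miRNA reads of the library. Brackets give 95% intervals, which cover counting error only, since copies made by PCR are not independent molecules. In such pooled RNA, fewer cells of a type and less RNA per cell cannot be told apart.

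A miRNA guides an Argonaute protein to messenger RNAs that pair with its seed, the bases near its 5′ end, and lowers their output. The miR-29 family is known for sites in the transcripts of Dnmt3a and Dnmt3b, the de novo DNA methyltransferases, of the Tet enzymes and Tdg, which take part in removing methylation, and of collagens and elastin. In the mouse germ line, DNA methylation is erased in primordial germ cells, laid down again in the fetal male germ cells that become spermatogonia and in growing oocytes, and partly removed again in the zygote. The libraries hold small RNAs only, so neither the methyltransferases nor methylation were measured.

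The mature sequences, from RefSeq (GRCm38.p6), show what the members share and where they can be told apart. The seed, bases 2 to 8 from the 5′ end, is in capitals.
miR-29a-3p: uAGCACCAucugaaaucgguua
miR-29b-3p: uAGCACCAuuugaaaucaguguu
miR-29c-3p: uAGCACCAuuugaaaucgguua
The seed is the same in the 3 members, and no other of 1679 mature mouse miRNA names in that table has it. With positions counted from 1 at the 5′ end, miR-29c-3p differs from miR-29a-3p by a single base, C10U. miR-29b-3p differs from miR-29a-3p by C10U, G18A, U21G and A22U and ends 1 base later. miR-29b-3p and miR-29c-3p are identical over their first 17 bases and first differ by A18G, so a read of 18 bases tells them apart by its last base alone. How many mismatches the read assignment allowed is not given in the sources used here. In spermatozoa miR-29b-3p was given 1066.33 reads and miR-29c-3p 139.667, which add up to 1206. In the other 4 libraries each member had a whole number of reads, although the spermatogonial table lists whole numbers only.

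The members come from 2 pairs of precursors. By the GENCODE vM21 annotation of GRCm38 (mm10), the precursor of miR-29a lies on the minus strand at chr6:31062660-31062747, outside other annotated genes. That of miR-29b-1 lies 275 bases away at chr6:31063023-31063093, also on the minus strand, and shares 2 of its 71 bases with an exon of the lincRNA Gm27019. The precursors of miR-29b-2, at chr1:195037040-195037120, and of miR-29c, at chr1:195037547-195037634, lie 426 bases apart on the plus strand. Both are wholly within exons of the noncoding transcript A330023F24Rik, and exons of Cd46, a complement regulator, cover them on the other strand. The mature miR-29b-3p is the same from chromosomes 6 and 1, so its reads do not name their precursor.

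The sites by which the family is known to act were looked up in the annotated transcripts (GENCODE vM21, GRCm38), as the 7 letters TGGTGCT, the reverse complement of bases 2 to 8, on the sense strand of the longest 3′ UTR of each gene. Of 21020 genes with such a UTR, 13.1% hold the letters at least once. Among 9 genes of DNA methylation and its removal, Dnmt3a held 5 matches, Dnmt3b 1, Tet1 7, Tet2 5, Tet3 8 and Tdg 3, and Dnmt1, Dnmt3l and Uhrf1 held none. The UTRs of Dnmt3a (6696 bases), Tet1 (7962) and Tet3 (5669) are long, and of UTRs of similar length (the shorter at least 0.8 times the longer) 46.3%, 51.0% and 43.7% hold the letters too. For the Dnmt3b UTR, of 1331 bases, that share is 12.3%, for Tet2 26.7% and for Tdg 18.9%. Of 5 textbook targets outside methylation, Col1a1, Col3a1 and Mcl1 held 1 match each and Eln 3, and Col1a2 held none in its annotated UTR. The 2 matches in Dnmt3a that are followed by A, the base that often faces the first base of a miRNA, and the one in Dnmt3b are shown with the bases before them, the match in capitals.
Dnmt3a, chr12:3911386-3911412, plus strand: cttgcccaggggaggtagcTGGTGCTa
Dnmt3a, chr12:3911455-3911481, plus strand: taccagcggggtcccaagcTGGTGCTa
Dnmt3b, chr2:153686608-153686634, plus strand: tgcttagagtagcccggcaTGGTGCTc
As the seed is shared, each match faces all 3 members alike. A match is a description of the letters, and whether these transcripts were present or bound in the 5 cell types was not measured.

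miR-29a-3p was the most read member in 4 of the 5 libraries. Primordial germ cells had 1639 of its reads (137 RPM), spermatogonia 9381 (880 RPM), spermatozoa 3591 (2952 RPM), the oocyte 648 (322 RPM) and the zygote 805 (346 RPM). By RPM it was lowest in primordial germ cells and highest in spermatozoa, and by RPM the zygote and the oocyte did not differ beyond counting error, with a ratio of 1.07 [0.967 to 1.19]. Its place among the miRNAs of a library, from the most read down, went from 174 of 866 with reads in primordial germ cells to 95 of 963 in spermatogonia and 44 of 853 in spermatozoa. In the oocyte it was at place 133 of 719 and in the zygote at 123 of 751.

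miR-29b-3p followed another order. Primordial germ cells had 1801 reads (150 RPM), spermatogonia 1001 (93.9 RPM), spermatozoa 1066.33 (877 RPM), the oocyte 101 (50.2 RPM) and the zygote 583 (251 RPM). The oocyte was lowest, followed by spermatogonia, primordial germ cells, the zygote and spermatozoa, and the counting intervals of these 5 levels do not overlap. In the zygote it was at place 139, and in the oocyte at 240.

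miR-29c-3p was the least read member in every library. Primordial germ cells had 125 reads (10.4 RPM), spermatogonia 103 (9.66 RPM), spermatozoa 139.667 (115 RPM), the oocyte 22 (10.9 RPM) and the zygote 48 (20.6 RPM). By RPM the levels of spermatogonia, primordial germ cells and the oocyte did not differ beyond counting error, with ratios of 0.928 [0.708 to 1.21] between the first 2, 1.05 [0.636 to 1.66] between oocyte and primordial germ cells and 1.13 [0.680 to 1.81] between oocyte and spermatogonia. By RPM spermatozoa stood above the other libraries for each of the 3 members.

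**Figure D1:**
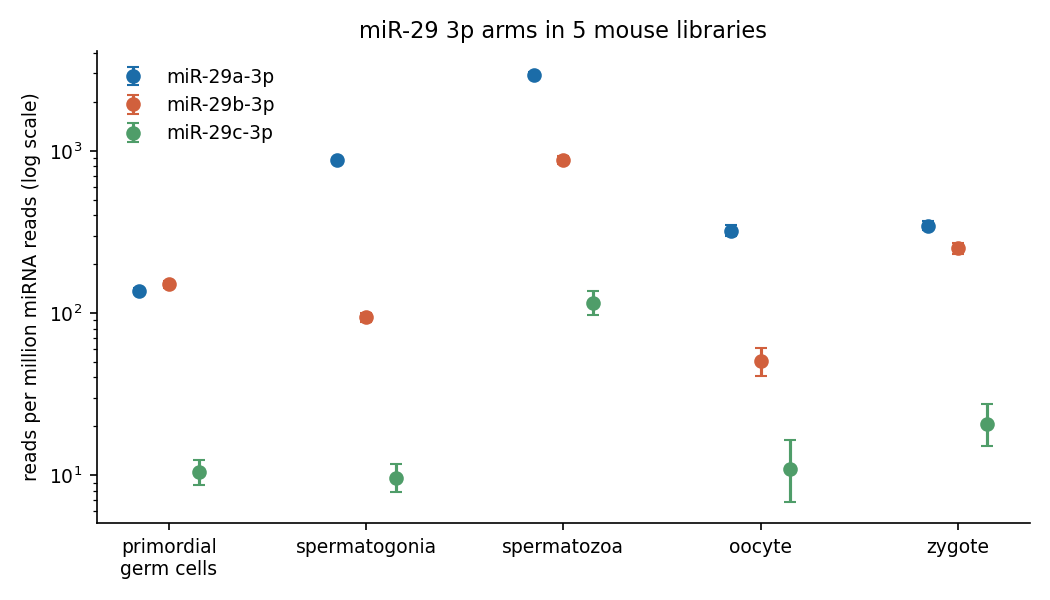
Levels of the 3 miR-29 3p arms in reads per 1000000 miRNA reads (log axis) by library; points are single libraries and bars are exact 95% Poisson intervals for counting error, hidden by the point where they are smaller than it. In primordial germ cells miR-29a-3p (137) and miR-29b-3p (150) lie close together, and in spermatogonia they lie apart (880 and 93.9).

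Summed over the 3 members, the level was 297 RPM for primordial germ cells, 984 for spermatogonia, 3944 for spermatozoa, 383 for the oocyte and 617 for the zygote. This order depends on the scale, because miRNAs were 5.57% of the reported small RNA reads in spermatozoa but 40.5% in spermatogonia and 45.2% in primordial germ cells. Scaled to the reads of all 4 reported classes (miRNA, snoRNA, piRNA and endo-siRNA), the sum was 134 RPM of that total for primordial germ cells, 398 for spermatogonia, 220 for spermatozoa, 17.8 for the oocyte and 33.2 for the zygote. On that scale spermatogonia were highest and the egg libraries lowest. The order of each member's levels changed as well. miR-29a-3p was then highest in spermatogonia, at 356 against 165 in spermatozoa and 61.7 in primordial germ cells, with 15.0 in the oocyte and 18.6 in the zygote. miR-29b-3p was highest in primordial germ cells, at 67.8 against 48.9 in spermatozoa and 38.0 in spermatogonia, with 2.34 in the oocyte and 13.5 in the zygote. miR-29c-3p remained highest in spermatozoa, at 6.40, but its oocyte level of 0.509 then lay below those of primordial germ cells (4.71) and spermatogonia (3.91).

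**Figure D2:**
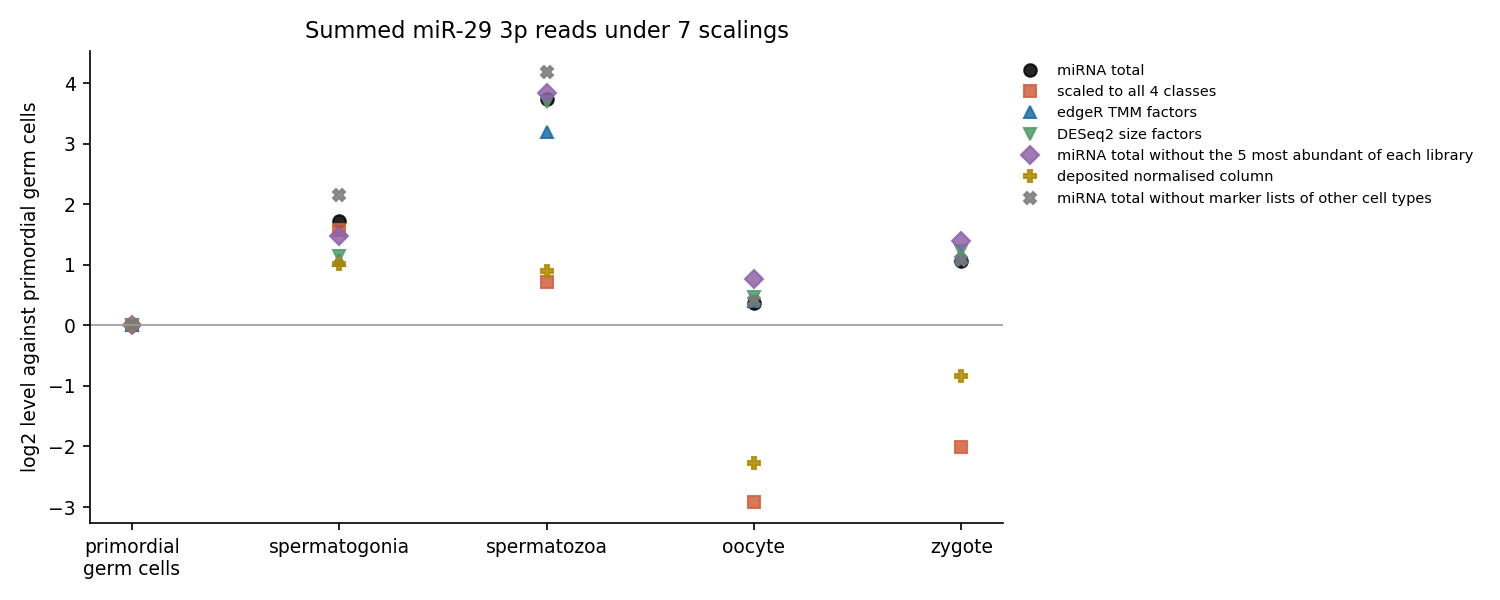
Summed miR-29 3p reads of each library as a log2 level against primordial germ cells, under 7 scalings (1 point each). Spermatozoa lie 3.73 above primordial germ cells by miRNA total and 0.71 above by all 4 classes, and the oocyte 0.37 above and 2.91 below.

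The make-up of the family does not depend on any scaling, since the members are counted in the same library. miR-29a-3p took 89.5% [88.9 to 90.1] of the miR-29 reads in spermatogonia, 84.0% [81.3 to 86.6] in the oocyte and 74.9% [73.6 to 76.1] in spermatozoa, but 56.1% [53.4 to 58.6] in the zygote and 46.0% [44.3 to 47.6] in primordial germ cells. miR-29b-3p took 9.55% [8.99 to 10.1] in spermatogonia, 13.1% [10.8 to 15.7] in the oocyte, 22.2% [21.1 to 23.4] in spermatozoa, 40.6% [38.0 to 43.2] in the zygote and 50.5% [48.9 to 52.2] in primordial germ cells. miR-29a-3p thus outnumbered miR-29b-3p in 4 libraries, most in spermatogonia and the oocyte, and in primordial germ cells miR-29b-3p was the more read. miR-29c-3p took 0.982% in spermatogonia and between 2.85% and 3.51% in the other 4 libraries. Per read of miR-29b-3p there were 0.910 reads of miR-29a-3p in primordial germ cells [0.851 to 0.974], 1.38 in the zygote [1.24 to 1.54], 3.37 in spermatozoa [3.15 to 3.61], 6.42 in the oocyte [5.20 to 7.99] and 9.37 in spermatogonia [8.78 to 10.01].

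**Figure D3:**
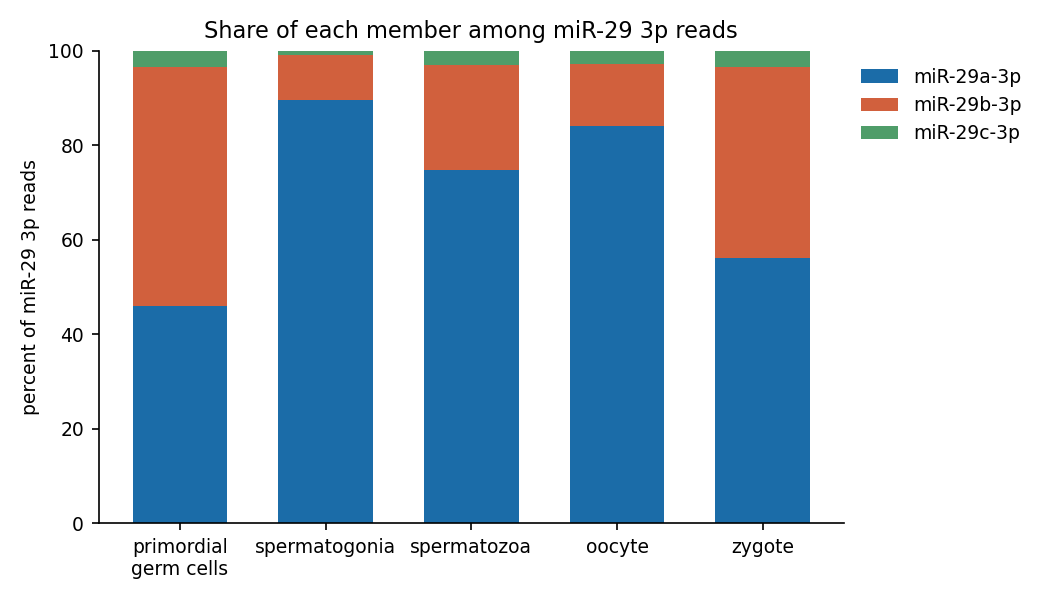
Share of each member among the miR-29 3p reads of a library, in percent; each bar is 1 library. The miR-29b-3p part runs from 9.55% in spermatogonia to 50.5% in primordial germ cells.

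Between primordial germ cells and spermatogonia, the stages between which DNA methylation is laid down in the male germ line, the members parted. miR-29a-3p was 6.45-fold higher in spermatogonia [6.12 to 6.80]. miR-29b-3p was lower there, at 0.626 of its level [0.579 to 0.677], and miR-29c-3p was at 0.928 of its level, within counting error. Among the 530 miRNAs that reached 100 reads in the 2 libraries together, 25.7% were higher in spermatogonia by 4-fold or more and 12.6% lower, so the single member of the 3 that was 4-fold higher is near that background. The median log2 ratio of the 3 members was -0.11, beside 0.65 for all 530. The ratio of miR-29b-3p to miR-29a-3p reads was 0.0971 of its value [0.0883 to 0.107], and that of miR-29c-3p to miR-29a-3p 0.144 [0.109 to 0.189]. Under the 6 other scalings miR-29a-3p was 3.93-fold to 8.61-fold higher and miR-29b-3p stayed at 0.382 to 0.836 of its level, while miR-29c-3p lay between 0.568 and 1.24. The 3.93, below the 4-fold line, came from the deposited normalised column.

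Markers of other cell types moved between these libraries as well. Smooth muscle and peritubular miRNAs summed to 9283 RPM for primordial germ cells and 233428 for spermatogonia, with all 7 read in both, and miR-143-3p made up most of it. Fibroblast and mesenchyme miRNAs, all 4 read in both, summed to 260 and 3769 RPM, and endothelial ones, both read in each, to 1051 and 9053. miR-202 arms, of the ovarian and testicular soma, summed to 1734 and 14981 RPM, and the 4 erythroid miRNAs to 211 and 2015. Every one of these markers was higher in spermatogonia. Leukocyte, epithelial and neuronal sums were lower there, at 0.516, 0.742 and 0.0746 of their values, but their members went both ways. Among 5 leukocyte markers 2 were higher in spermatogonia (miR-150-5p, at 48.5 against 3.25 RPM, and miR-223-3p, at 16.7 against 2.17), as were 2 of 6 epithelial and 1 of 4 neuronal ones. The part of such cells in the miR-29a-3p difference was not tested.

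From spermatogonia to spermatozoa the 3 members were higher by RPM. miR-29a-3p was 3.35-fold higher [3.23 to 3.49], miR-29b-3p 9.33-fold [8.55 to 10.2] and miR-29c-3p 11.9-fold [9.17 to 15.5]. The 4-fold line was passed upward by 14.9% of 471 miRNAs and downward by 37.2%, and 2 of the 3 members were in the first group. The median log2 ratio was 3.22 for the members and -1.10 for all miRNAs. With reads scaled to all 4 classes, which moves each of these log2 ratios by -2.86, miR-29a-3p was at 0.462 of its spermatogonial level, miR-29b-3p was 1.29-fold higher and miR-29c-3p 1.63-fold higher. In either scale the 2 less read members were higher relative to miR-29a-3p: the ratio of miR-29b-3p to miR-29a-3p was 2.78-fold higher in spermatozoa [2.53 to 3.06] and that of miR-29c-3p to miR-29a-3p 3.55-fold higher [2.72 to 4.64].

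Epithelial markers, such as the miR-200 family of the epididymal lining, moved with this difference. All 6 were read in both libraries, and they summed to 1099 RPM in spermatogonia and 23200 in spermatozoa. Erythroid markers (all 4 read in both) summed to 2015 and 19438 RPM, leukocyte markers (all 5 read in both) to 304 and 3095, and neuronal ones (all 4 read in both) to 288 and 1643. Endothelial, fibroblast and miR-202 sums were lower in spermatozoa, at 0.0414, 0.316 and 0.00686 of their values. By RPM every epithelial, erythroid, leukocyte and neuronal marker was higher in spermatozoa, and every one of the endothelial, fibroblast and miR-202 lists lower. Scaling to all 4 classes moves the log2 ratios of the markers by -2.86 too, so log2 rises smaller than that become falls. The smooth muscle and peritubular sum of 231690 RPM in spermatozoa was nearly all miR-143-3p, at 230279 RPM, close to its 230893 in spermatogonia. Of the 7 markers of that list 6 were lower in spermatozoa, such as miR-145a-5p at 459 against 2149 RPM, and miR-1a-3p was higher, at 904 against 295. Their part in the miR-29 levels of spermatozoa was not tested. As a check of the labels, miR-34c-5p, a miRNA of late spermatogenesis, had 221799 RPM in spermatozoa. It also had 8144 RPM in the oocyte, 5363 in the zygote, 3181 in primordial germ cells and 874 in spermatogonia. The check also took 3 miRNAs of the miR-290 cluster, a marker of primordial germ and pluripotent cells. They summed to 24825 RPM for primordial germ cells, 8377 for the zygote and less elsewhere.

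Spermatozoa and the oocyte, the 2 gametes, differed in each member. In spermatozoa miR-29a-3p was 9.16-fold higher [8.42 to 9.97], miR-29b-3p 17.5-fold [14.2 to 21.6] and miR-29c-3p 10.5-fold [6.68 to 17.3]. All 3 were past 4-fold, as were 26.7% of 300 miRNAs in that direction and 26.3% in the other. They stayed past 4-fold under each of the 6 other scalings, with the lowest value 6.17-fold for miR-29a-3p. The smooth muscle and peritubular, fibroblast and erythroid sums were also higher in spermatozoa, by 8.60-fold, 8.44-fold and 48.0-fold, and the endothelial, leukocyte, epithelial and neuronal sums by 2.19-fold to 2.70-fold. The smooth muscle and peritubular sum was nearly all miR-143-3p, and 5 of its 7 markers were higher in spermatozoa. The 2 lower ones were miR-133a-3p, at 2.19 and 4.14 RPM, and miR-133b-3p, at 1.10 and 2.32, both under 3 reads in spermatozoa. Single markers differed far more than the leukocyte and epithelial sums. miR-155-5p, at 48.5 RPM in spermatozoa and 1384 in the oocyte, went against the other 4 leukocyte markers, of which miR-142-3p was at 2304 and 19.4 RPM and miR-150-5p at 285 and 0.995. miR-200c-3p, at 7404 and 8355 RPM, went against the other 5 epithelial markers, of which miR-205-5p was at 411 and 11.9 RPM. The part of such cells was not tested. The miR-202 sum went the other way, from 5723 RPM in the oocyte to 103 in spermatozoa.

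Between oocyte and zygote, where few miRNAs differed, miR-29b-3p stood out from the other members of its family. It went from 101 reads among 2010462 to 583 among 2327081, 4.99-fold higher in the zygote [4.03 to 6.22], and stayed between 4.78-fold and 8.37-fold under the 6 other scalings. miR-29a-3p, with 648 and 805 reads, differed by no more than counting error by RPM, but its log2 ratio of 0.10 was 0.31 over all 4 classes and 0.86 with the deposited normalised column, both outside the counting interval. Across the scalings it was 1.03-fold to 1.81-fold higher in the zygote. miR-29c-3p, with 22 and 48 reads, was 1.88-fold higher [1.12 to 3.28] but had under 100 reads over the pair. miR-29b-3p was the single member of the 2 with enough reads to pass 4-fold, which 2.01% of 299 miRNAs did upward and 1.34% downward. The zygote's ratio of miR-29b-3p to miR-29a-3p was 4.65-fold that of the oocyte [3.66 to 5.94], and that of miR-29c-3p to miR-29b-3p was at 0.378 of its oocyte value [0.213 to 0.688]. The marker sums of other cell types lay at 0.487 (miR-202 arms) to 1.15 (leukocyte) of their oocyte values, with miR-142-5p at 0 in both libraries and miR-144-3p at 0 in the oocyte. Single markers moved further: miR-142-3p was at 66.6 RPM in the zygote against 19.4, miR-141-3p at 2736 against 895 and miR-9-3p at 33.1 against 13.4, while miR-145a-5p was at 63.6 against 216. By RPM all 7 smooth muscle and peritubular markers and all 4 fibroblast ones were lower in the zygote, as were both endothelial ones and both miR-202 arms. Among 6 epithelial markers only miR-141-3p was higher there and 5 were lower. Among 4 neuronal markers only miR-9-3p was higher and 3 were lower. Leukocyte markers were split, with 2 higher and 2 lower, and of 4 erythroid ones 1 was higher and 3 were lower. The part of such cells in the miR-29b-3p difference was not tested.

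Set against spermatozoa, the zygote had less of each member by RPM. miR-29a-3p was 8.53-fold lower [7.90 to 9.22], miR-29c-3p 5.57-fold [3.99 to 7.92] and miR-29b-3p 3.50-fold [3.16 to 3.88]. Lower by 4-fold or more were 2 of the 3 members and 25.6% of 308 miRNAs, while 26.3% were higher. The smooth muscle and peritubular, fibroblast and erythroid sums were lower in the zygote too, by 10.9-fold, 12.2-fold and 65.3-fold. The endothelial sum was 3.88-fold lower, the neuronal 2.59-fold, the epithelial 2.34-fold and the leukocyte 1.90-fold, and the miR-202 sum was 27.1-fold higher. Of all these markers outside miR-202, miR-155-5p alone was higher in the zygote, at 1554 against 48.5 RPM. The part of such cells was not tested. In the zygote, miR-29b-3p stood higher relative to miR-29a-3p than in either gamete, with a ratio 2.44-fold that of spermatozoa [2.14 to 2.77]. Under the 6 other scalings miR-29a-3p was past 4-fold lower in all 6, miR-29c-3p in 4 and miR-29b-3p in 1. The 3 comparisons among oocyte, spermatozoa and zygote share their libraries and are not independent of each other.

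**Figure D4:**
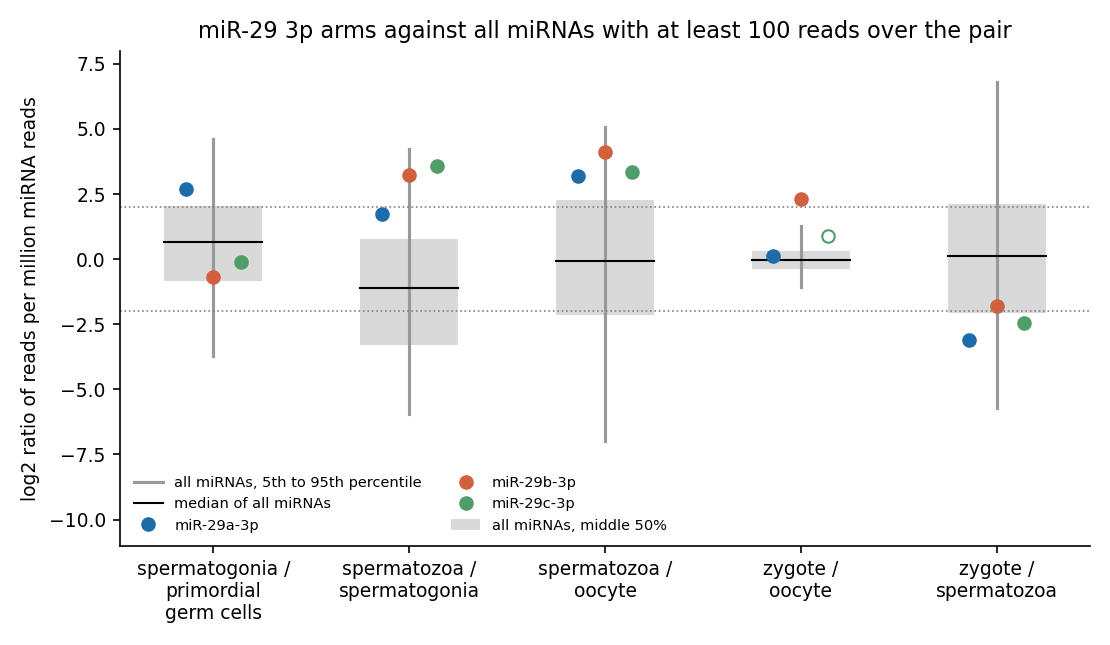
Log2 ratios of the 3 members (coloured points) in 5 comparisons, over the middle 50% (grey boxes), the 5th to 95th percentile range (grey lines) and the median (black) of all miRNAs reaching 100 reads in the pair of libraries; dotted lines mark 4-fold and the open point has under 100 reads. miR-29b-3p in the zygote against the oocyte (2.31) lies above the 95th percentile of all miRNAs there (1.27).

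The 5p arms, the strands of the hairpins that are usually discarded, name the precursor where the 3p arm of miR-29b does not. They are shown because miR-29b-1 and miR-29b-2 differ in them, with bases 2 to 8 in capitals as above.
miR-29a-5p: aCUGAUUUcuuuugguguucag
miR-29b-1-5p: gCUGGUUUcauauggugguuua
miR-29b-2-5p: cUGGUUUCacaugguggcuuagauu
miR-29c-5p: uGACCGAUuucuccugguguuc
These arms had very few reads: 30 for spermatogonia, 24 for primordial germ cells, 11 for the oocyte, 6 for the zygote and 3 for spermatozoa, from 0.0625% to 1.41% of the reads of both arms. miR-29c-5p was read 24 times in primordial germ cells, 12 in spermatogonia, 8 in the oocyte, 4 in the zygote and 0 in spermatozoa. It was the most read 5p arm in 4 libraries, although its 3p partner was the least read of the 3p arms. Its counting interval overlaps that of the next arm in spermatogonia (12 against 11 reads), the oocyte (8 against 3) and the zygote (4 against 2). miR-29b-1-5p was read 11 times in spermatogonia and in no other library, and miR-29b-2-5p 7 times in spermatogonia, 3 in spermatozoa and 2 in the zygote. miR-29a-5p was read 3 times in the oocyte only. In primordial germ cells, where miR-29b-3p had 1801 reads, neither 5p arm of miR-29b was read, which allows up to 0.250 RPM for each (3 reads). In primordial germ cells the precursor of the miR-29b-3p reads was therefore not detectable at this depth, while in spermatogonia both precursors had 5p reads.

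Likeness of pattern was measured as the root mean square difference of log2 RPM over the 5 libraries, each miRNA first set to its own mean, among 575 miRNAs with 100 reads or more in all. miR-29b-3p and miR-29c-3p were near each other, at 0.58: miR-29c-3p was the 2nd nearest to miR-29b-3p, and miR-29b-3p the 4th nearest to miR-29c-3p. miR-29a-3p lay apart from both, at 1.28 from miR-29b-3p and 0.96 from miR-29c-3p, at places 83 and 40 in the order of nearness to it. The median distance of all miRNAs from miR-29a-3p was 2.11. Nearest to miR-29a-3p were miR-22-5p at 0.31, miR-742-3p at 0.41, miR-195a-5p at 0.43 and miR-6538 at 0.45. From primordial germ cells to the zygote, in the order used above, miR-22-5p had 12.2, 52.6, 196, 29.8 and 36.1 RPM. Nearest to miR-29b-3p were miR-130b-5p at 0.57, miR-29c-3p, miR-301a-3p at 0.60 and miR-742-5p at 0.66, and to miR-29c-3p miR-192-5p at 0.44, miR-191-5p at 0.50 and miR-742-5p at 0.54. These distances are over 5 single libraries and describe them only. Without the zygote 2 of the 4 nearest to miR-29a-3p were still among its nearest, 1 of those of miR-29b-3p and none of those of miR-29c-3p. miR-29b-3p and miR-29c-3p were then no longer among the 4 nearest of each other.

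Other miRNAs described as acting on enzymes of DNA methylation and its removal were set beside miR-29. The list held 12, read in all 5 libraries: miR-148a, miR-148b and miR-152, which share a seed and are known to act on Dnmt1, miR-143, miR-101a and miR-101b for Dnmt3a, miR-22 for Tet2, miR-26a and miR-26b for Tet enzymes and Tdg, and miR-291a, miR-294 and miR-295, which act on Dnmt3 genes through Rbl2. In spermatogonia against primordial germ cells 1 passed 4-fold upward and 5 downward, beside 25.7% and 12.6% of all miRNAs. The median log2 ratio was -1.11, beside 0.65 for all. miR-143-3p was the higher one, at 230893 RPM against 9230. The lower ones were miR-148b-3p at 5.01-fold, miR-101b-3p at 9.30-fold and the 3 members of the miR-290 cluster. miR-148a-3p, at 39397 RPM for primordial germ cells and 31630 for spermatogonia, was far above the summed miR-29 level in each library.

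In spermatozoa against spermatogonia none of the 12 was 4-fold higher and 3 were 4-fold lower, those of the miR-290 cluster, beside 14.9% and 37.2% of all miRNAs. The median log2 ratio was 0.02, beside -1.10 for all. In spermatozoa against the oocyte miR-143-3p was 8.74-fold higher, the same 3 were lower, beside 26.7% and 26.3% of all miRNAs, and the median was 0.49, beside -0.09. In the zygote against the oocyte none was 4-fold apart, beside 2.01% higher and 1.34% lower of all miRNAs, with a median of 0.12, beside -0.01. In the zygote against spermatozoa the 3 miR-290 members were higher and miR-143-3p lower, beside 26.3% and 25.6% of all miRNAs, with a median of -0.38, beside 0.13. miR-26a-5p, at 4798, 8071, 12775, 3252 and 3413 RPM from primordial germ cells to the zygote, was by RPM like miR-29a-3p highest in spermatozoa, over a narrower range. It was not alone, as miR-26b-5p (2233 RPM there) and miR-101a-3p (3457) were highest in spermatozoa too. So was miR-22-3p, at 549 RPM, within counting error of its 534 in spermatogonia. miR-143-3p is also on the list of smooth muscle and peritubular markers.

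**Figure D5:**
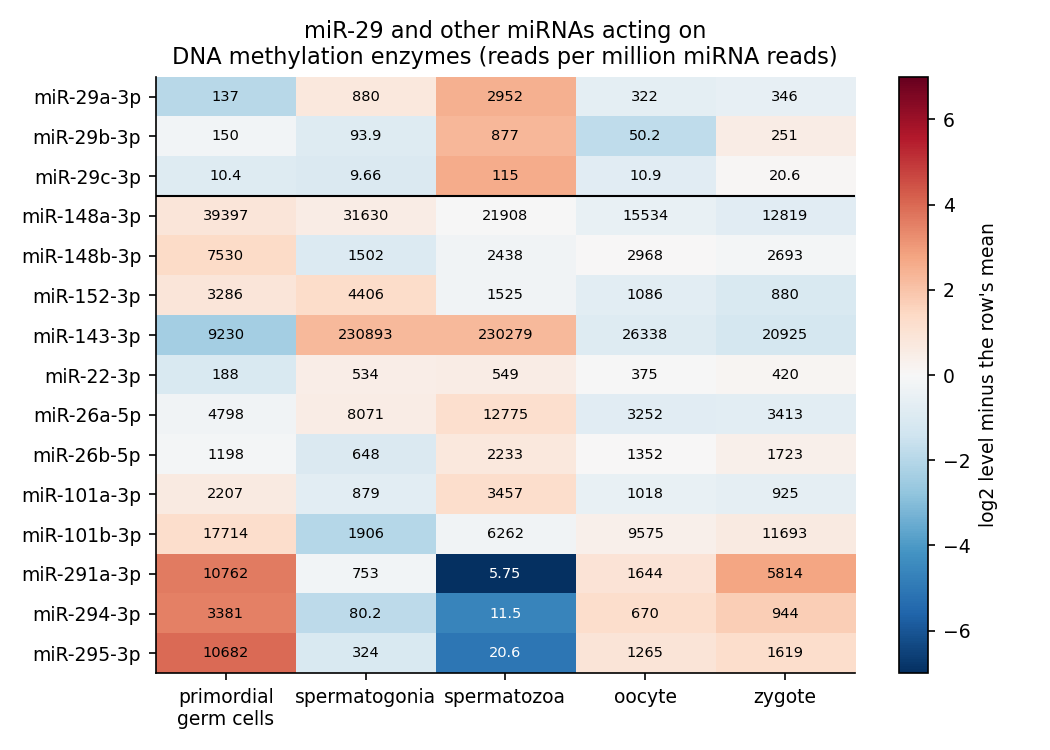
Levels of the 3 miR-29 members (above the line) and of 12 other miRNAs described as acting on DNA methylation enzymes, with reads per 1000000 miRNA reads written in each cell and colour for the log2 level minus the row's mean over the 5 libraries. miR-291a-3p, for example, runs from 10762 in primordial germ cells to 5.75 in spermatozoa, where miR-29a-3p is highest (2952).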

How the data were processed

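Reads of 18 to 32 nucleotides were reported from 1 library per cell type, per the labels' protocols. The submitters' processing notes list Bowtie 0.12.7, DESeq and the build mm10 and do not say what each was used for. Reads were deposited by the authors as an estimated count per miRNA, many of them fractional. The deposited tables also hold a TMM signal, named so per the file headers, in which every read of a library was multiplied by the same factor. In spermatogonia all miRNA reads were deposited as whole numbers, yet for 34 of 794 entries under 50 reads the TMM value divided by that factor lay over 0.1 from a whole number. The members had more reads there and were not part of that check.

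Reads were scaled to the library's miRNA total. Log2 ratios used a pseudocount of 0.5 reads, a comparison took the entries that reached 100 reads in its 2 libraries together, and calls were made at 4-fold. Intervals (95%) are exact: Poisson for levels, conditional on the sum of 2 Poisson counts for ratios, Clopper-Pearson for shares and conditional odds ratios for ratios of ratios, on rounded reads. With 1 library per group there is no test, SD or p-value. Entries naming no single snoRNA (0.551% to 4.59% of snoRNA reads) stayed out of the 4-class total. Other scalings were edgeR 4.0.16 TMM factors, DESeq2 1.42.0 size factors, 4-class totals, totals without the 5 most abundant miRNAs of each library, the deposited TMM column and, chosen after seeing the data, totals without 34 markers of other cell types. The code was tested on simulated data. Named were the 3 members, their 5p arms, the list members and the 4 miRNAs nearest in pattern to each member. Members and lists were chosen with earlier results of these data known.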

Additional observations from a re-analysis of the deposited data

How the results depend on the processing

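Shares within the family did not change under any scaling by construction. Rounding reads down could change them in spermatozoa only, since the members' reads were whole elsewhere, and there they stayed within their intervals. The log2 ratio of the summed family by miRNA total was 1.73 for spermatogonia against primordial germ cells, 2.003 for spermatozoa against spermatogonia, 3.36 for spermatozoa against the oocyte, 0.69 for zygote against oocyte and -2.68 for zygote against spermatozoa. In that order it was 1.57, -0.86, 3.62, 0.90 and -2.73 over all 4 classes; 1.01, -0.12, 3.16, 1.44 and -1.72 with the deposited TMM column; 1.09, 2.10, 2.79, 0.77 and -2.02 with edgeR's TMM factors. It was 1.15, 2.54, 3.22, 0.75 and -2.46 with DESeq2 size factors, 1.48, 2.36, 3.08, 0.63 and -2.45 without the 5 most abundant miRNAs of each library, and 2.15, 2.03, 3.77, 0.67 and -3.10 without markers of other cell types. Without miR-29a-3p the sum gave -0.63, 3.26, 4.01, 2.14 and -1.87, and without miR-29b-3p 2.60, 1.79, 3.20, 0.14 and -3.06, since the members differ. Leaving out miR-29c-3p, adding the 5p arms and a pseudocount of 5 kept the sum within its intervals. Of the members, miR-29a-3p in spermatozoa against spermatogonia turned to -1.11 over all 4 classes and -0.38 with the deposited TMM column, and miR-29c-3p in spermatogonia against primordial germ cells, within counting error of 0, to 0.31 without the marker lists.

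Counts of miRNAs at least 4-fold higher and lower, in the same order of comparisons, were 136 and 67, 70 and 175, 80 and 79, 6 and 4, and 81 and 79 with a minimum of 100 reads. With 20 reads they were 192 and 105, 112 and 244, 137 and 129, 19 and 13, and 127 and 132, and with 1 read 383 and 200, 361 and 252, 434 and 226, 137 and 110, and 211 and 419. At 2-fold in place of 4-fold they were 225 and 119, 101 and 241, 114 and 110, 21 and 18, and 106 and 106. With a minimum of 1000 reads, miR-29c-3p could not be compared in pattern, and 2 of the 4 nearest of miR-29a-3p and 1 of those of miR-29b-3p remained. The others of these nearest had under 1000 reads and fell out by that rule. This setting therefore cannot show whether they would have stayed near. Pooled, miR-29b-3p and miR-29c-3p gave -0.63, 3.26, 4.01, 2.14 and -1.87, which is by construction the sum without miR-29a-3p and not a further check. This pooling and the totals without markers were chosen after seeing the data. No paired analysis was possible because each cell type had 1 library. Depth limits the 5p arms, at most 24 reads each, and miR-29c-3p in the egg libraries.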
